A study of Mus musculus with 12 samples.

Results

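The difference of the LPS response between WT and cGAS-/- macrophages was examined gene by gene, as the LPS effect in cGAS-/- cells minus the LPS effect in WT cells on the log2(TPM + 1) scale, where TPM is a level per transcript length and library total. The comparison covered the 9855 of 38739 listed gene symbols that reached 1 TPM in at least 3 of the 12 samples, and 96 of these passed an adjusted p of 0.05. The 12 RNA-seq libraries came from mouse bone marrow-derived macrophages, that is, bone marrow cells cultured until they become macrophages. Each genotype was cultured in medium alone (UT) or with lipopolysaccharide of E. coli (LPS), with 3 libraries per genotype and treatment. The donors were male mice 8 weeks of age, C57BL/6J for WT and, for cGAS-/-, mice of that same background that lack the gene in every cell, so that the deletion was also present while the macrophages developed. The methods give an exposure of 24 h to 150 ng/mL, whereas the sample labels give 1 h and 100 ng/mL and name neutrophils in the extraction text, so the time behind every LPS value is uncertain. The samples of a group were described as technical replicates, and p-values then measure only the spread between such samples.

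LPS of Gram-negative bacteria is sensed by TLR4 with its partners MD-2 and CD14, which signals through MyD88 to NF-kB and AP-1 and through TRIF to IRF3 and type I interferon. cGAS is an enzyme that senses double-stranded DNA in the cytosol and makes the messenger cGAMP, which activates STING and, through TBK1 and IRF3, interferon genes. Responses can differ between genotypes because the levels differ with LPS, because they differ at rest, or both. Each called gene was therefore also described by its genotype difference in UT and in LPS samples.

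Cgas itself was at 0.0703 to 0.291 TPM in the cGAS-/- samples and at 1.19 to 3.25 TPM in the WT samples. Spread was widest within WT LPS, with a median SD over genes of 0.712 on the log2 scale against 0.114 to 0.136 in the other groups. WT LPS replicate 3 had a column total of 709802 TPM against 447189 to 503156 in the others, and 31.7% of it lay in the ferritin pseudogene Fth-ps3. WT LPS replicates 1 and 3 had 12787 and 12261 genes above 0, against 15378 to 17573 in the other samples. Of 12 macrophage markers, 10 were listed and all 10 passed the filter. None of the tested markers of macrophages, B cells, neutrophils, erythroid, stromal or dendritic cells was called, and no marker of T and NK cells or of mast cells reached the filter. The median difference of responses over all genes was 0.32, and 0.09 without WT LPS replicate 3, and the values below are to be read against this shift.

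The LPS response was higher in cGAS-/- than in WT cells for 76 genes (0.771% of genes tested) and lower for 20 (0.203%), together 0.974%, by limma with Benjamini-Hochberg adjustment. Quantile normalization, which removed the shift of all genes, gave 114 higher and 59 lower. Of the 96, 50 genes (0.507%) differed by more than 2 on the log2 scale. An unadjusted p under 0.05 was reached by 1089 genes. All 96 were called again, among 551 (5.59%), when WT LPS replicate 3 was left out, 75 of them were called with weights per sample, and 13 with a separate variance for each condition. When 1 of the 9 samples of the other groups was left out, 44 to 48 genes were called. When WT LPS replicate 1 was left out the number was 108, and for replicate 2 it was 1574. The 96 genes had a median SD within WT LPS of 0.334, below the 0.712 of all genes. Of the 96, 23 reached 1 TPM in the samples of 1 group alone (15 in WT UT, 5 in cGAS-/- LPS) and so passed the filter through the group where they were high. Further genes, such as Il6, Id1, Tgfb3 and Chil3, reached it elsewhere in too few samples to pass without that group. At the threshold, Chil3 was the last gene inside with an adjusted p of 0.0484, and Plac8 stood just outside with 0.0503. For comparison, LPS changed 30.8% of genes in WT, 479 up and 2553 down, and 15.8% in cGAS-/- cells, 548 up and 1009 down. The median LPS effect over all genes was -0.55 in WT and -0.222 in cGAS-/- cells. After scaling by TMM factors these medians were -0.076 and -0.016, so the falls in WT are to be read against this shift.

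The 96 genes were sorted by the share of the difference that came from the LPS samples. The genotypes differed mainly with LPS in 29 genes, 19 with a higher and 10 with a lower response in cGAS-/- cells. They differed mainly at rest in 45 genes, 38 higher and 7 lower. In 21 genes, 19 higher and 2 lower, both conditions contributed, with genotype differences of opposite sign at rest and with LPS and each holding more than 0.333 of the total. In Gm7592 the genotype difference was present at rest and larger with LPS. Opposite signs were not limited to the 21 genes, since they were found in 64 of the 96, and in 35 of these the genotypes did not overlap in either condition. The borders lay at 0.333 and 0.667 of the difference, with Cks2 at 0.671 and Spn at 0.666 on either side of the upper one. Without WT LPS replicate 3, 91 of the 96 genes stayed in their class. Among all genes tested the UT groups of the genotypes did not overlap in 32.9% and the LPS groups in 18.7%, and 1.82% and 2.6% were called for the genotype difference at rest and with LPS.

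**Figure D1:**
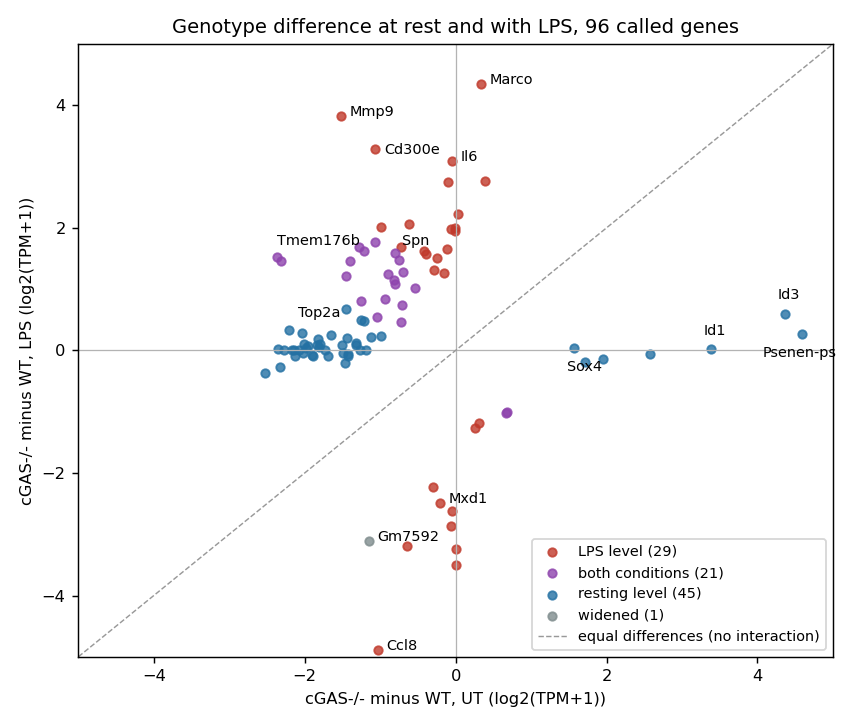
The genotype difference in UT samples (x axis) and in LPS samples (y axis), both as cGAS-/- minus WT on the log2(TPM + 1) scale, for the 96 called genes coloured by class. Resting-level genes lie along the horizontal line and LPS-level genes along the vertical line, and genes on the dashed diagonal would respond alike in both genotypes.

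Among called genes the largest difference of responses was that of Mmp9, the matrix metalloproteinase gelatinase B (chromosome 2, 164780439 to 164797771 in GRCm39, plus strand). It was at 51.8, 48.9 and 47.6 TPM in cGAS-/- LPS and at 0.465, 0.518 and 0.766 in cGAS-/- UT. In WT it was at 4.18, 4.06 and 0.744 with LPS and at 2.84, 4.09 and 3.77 at rest. Mmp9 rose in cGAS-/- cells (4.998, adjusted p = 5.16e-06) and its WT change was -0.34 (adjusted p = 0.471), and at rest all cGAS-/- samples were below the WT samples. The difference of responses was 5.34 (SE 0.51, adjusted p = 0.000818).

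Cd300e, an activating receptor of monocytes, had the same layout. Its cGAS-/- LPS samples were at 31.9, 30.1 and 30.9 TPM, against 3.69, 4.04 and 0.485 in WT LPS. At rest it had 1.03, 0.625 and 0.587 TPM in cGAS-/- and 3.22, 2.32 and 2.47 in WT, so the genotypes were apart in both conditions and in opposite directions. The difference of responses was 4.36 (SE 0.548, adjusted p = 0.00355).

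Marco, a scavenger receptor that binds bacteria, and Il6, the cytokine interleukin-6, rose in both genotypes and to a higher level in cGAS-/- cells. Marco reached 265, 265 and 270 TPM in cGAS-/- LPS and 9.75, 11.6 and 15.7 in WT LPS, and all UT samples lay between 0.48 to 1.33 TPM with overlapping genotypes. Il6 was at 14.8, 12.5 and 15.5 TPM in cGAS-/- LPS and at 1.07, 0.772 and 0.559 in WT LPS, and no UT sample was above 0.134. The differences of responses were 4.01 for Marco (SE 0.329) and 3.14 for Il6 (SE 0.241), both with an adjusted p of 0.000454. Without WT LPS replicate 3 they were 4.19 and 3.04.

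The bases before the starts of Mmp9 and Il6 are shown because both genes were called under every alternative tried and both stretches hold matches to motifs of factors that LPS activates, while those of Marco, Cd300e and Id3 held no match to any motif searched. Each is the 250 bases before the start of the canonical transcript in GRCm39, with matches in capitals. The Mmp9 stretch, chr2:164789889-164790138 on the plus strand, holds an AP-1 motif (TGAGTCA or TGACTCA) 69 bases before the start. The Il6 stretch, chr5:30217862-30218111 on the plus strand, holds an AP-1 motif 249 bases and an NF-kB motif 44 bases before the start. Il6 was added to this display after its values were seen.
Mmp9: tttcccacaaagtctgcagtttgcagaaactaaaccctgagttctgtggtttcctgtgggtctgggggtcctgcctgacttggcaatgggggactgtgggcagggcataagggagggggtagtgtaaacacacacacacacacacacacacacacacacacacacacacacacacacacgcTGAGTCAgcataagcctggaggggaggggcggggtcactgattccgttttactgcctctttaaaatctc
Il6: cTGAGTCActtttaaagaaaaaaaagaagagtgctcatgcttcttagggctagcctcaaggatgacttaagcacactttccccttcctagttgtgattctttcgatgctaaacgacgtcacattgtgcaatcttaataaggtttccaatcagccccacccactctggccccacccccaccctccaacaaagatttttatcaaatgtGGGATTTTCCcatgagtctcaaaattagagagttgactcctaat

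Further secreted signals stood in this class. Il1a, the alarmin interleukin-1 alpha, had 279, 205 and 234 TPM in cGAS-/- LPS and 58.9, 84.9 and 41.4 in WT LPS, from 0.505 to 1.18 TPM at rest. It rose in both genotypes, and the difference of responses was 2.05 (SE 0.402, adjusted p = 0.0423). Il12a, the p35 subunit of interleukin-12, had 4.32, 3.7 and 2.72 TPM in cGAS-/- LPS, whereas WT LPS samples had 0.293, 0.244 and 0. It rose in cGAS-/- cells, its WT change of 0.19 did not pass the test, and the difference of responses was 1.96 (SE 0.264, adjusted p = 0.00483).

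Other genes of this class had varied functions. Smpdl3b, a phosphodiesterase of the macrophage membrane, had 67.9, 60.9 and 65.8 TPM in cGAS-/- LPS and 9.42, 14.4 and 4.8 in WT LPS. Slc7a2, a transporter of cationic amino acids such as arginine, had 35.8, 30.4 and 31.4 against 3.87, 7.55 and 1.88. Vnn3, of the vanin family of pantetheinases, had 14.4, 13.6 and 13.6 against 1.92, 4.26 and 1.97. In each of these the LPS groups did not overlap and both genotypes rose, with differences of responses of 2.85, 2.37 and 2.68. The orphan receptor Gpr141 differed by 2.42, the actin-bundling gene Fscn1 by 2.04, the caveolin Cav1 by 1.41, the connexin Gja1 by 1.76, the lipid transporter Abca7 by 1.59 and Mvd, an enzyme of cholesterol synthesis, by 1.97. Shisa3, Lad1 and Ppm1n were below 1 TPM in every sample outside cGAS-/- LPS, where Shisa3 had 3.74, 3.7 and 3.74 TPM.

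Cks2, a subunit of cyclin-dependent kinases, had another layout. In WT it fell from 15.4, 31 and 20.4 TPM to 4.29, 4.76 and 1.09 with LPS. In cGAS-/- cells it was at 10.9, 10.5 and 9.5 TPM at rest and at 15, 12.7 and 18.2 with LPS, a change that did not pass the test (0.51, adjusted p = 0.457). The difference of responses was 3.001 (SE 0.541, adjusted p = 0.0282), and without WT LPS replicate 3 its share from LPS lay below the border, among the genes to which both conditions contributed.

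The lower responses of this class were led by Ccl8, the chemokine MCP-2, which attracts monocytes. Ccl8 had 528, 251 and 70.5 TPM in WT LPS but 4.66, 7.16 and 6.82 in cGAS-/- LPS. At rest WT samples had 8.96, 13 and 9.85 TPM and cGAS-/- samples 4.07, 4.66 and 5.14. Ccl8 rose in WT (4.21, adjusted p = 0.000312), and its change in cGAS-/- cells was 0.35 (adjusted p = 0.774). The difference of responses was -3.86 (SE 0.788, adjusted p = 0.048), and -4.65 without replicate 3, the WT LPS sample lowest in this gene.

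Mxd1, an antagonist of MYC in the MAX network, was at 19.2, 22.5 and 14.5 TPM in WT LPS and at 2.71, 2.15 and 2.53 in cGAS-/- LPS, from 1.64 to 2.85 TPM at rest. The genotypes overlapped at rest and were apart with LPS, and the difference of responses was -2.28 (SE 0.293, adjusted p = 0.00376). The kinase gene Nek6 and Ctla2a, which encodes a cysteine protease inhibitor, had another form. Nek6 fell in cGAS-/- cells from 10.2, 9.5 and 9.36 TPM to 2.2, 2.07 and 1.99, and was at 5.32, 5.06 and 7.9 in WT LPS against 7.9, 7.4 and 7.57 in WT UT. Ctla2a fell in cGAS-/- cells from 6.25, 6.47 and 6.07 TPM to 0.934, 0.808 and 1.11, and was at 3.37, 2.75 and 5.23 in WT LPS against 4.79, 4.88 and 5.58 in WT UT. The WT changes of both did not pass the test, and the differences of responses were -1.49 and -1.52.

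**Figure D2:**
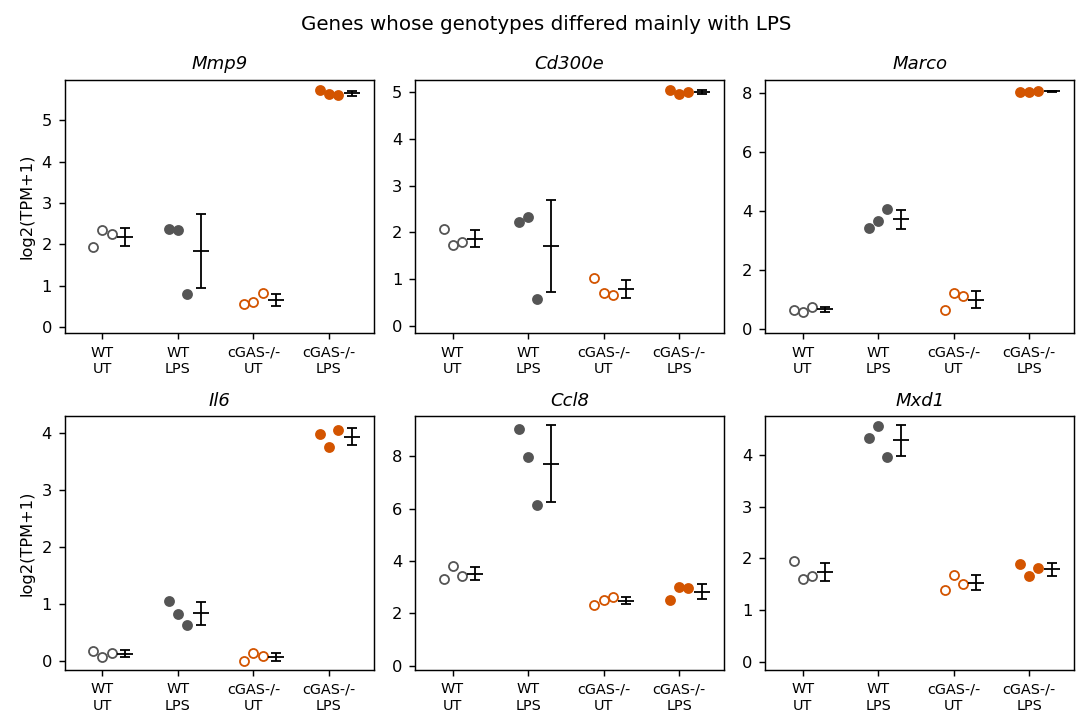
log2(TPM + 1) of 6 LPS-level genes in each sample (points, open for UT and filled for LPS, grey for WT and orange for cGAS-/-), with the mean and SD of the 3 samples beside them. The cGAS-/- LPS samples of Mmp9, Cd300e, Marco and Il6 lie above all WT LPS samples, and those of Ccl8 and Mxd1 lie below them.

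The remaining 6 genes with a lower response in this class were predicted genes. Gm26674, a long non-coding RNA antisense to Sash1, had 20.2, 23.1 and 40.2 TPM in WT LPS against 3.75, 3.25 and 3.45 in cGAS-/- LPS, and 1.66 to 2.09 at rest, a difference of responses of -2.57 (adjusted p = 0.00464). The counting of the files is not stated to use strand, so its reads and those of Sash1 cannot be told apart with certainty. Gm7609 had 15.7, 12.5 and 8.52 TPM in WT LPS against 0.474, 0.877 and 0.976 in cGAS-/- LPS, and Gm7592, whose resting difference was larger with LPS, had 14.7, 33.5 and 19.1 against 1.8, 1.56 and 1.37. The whole transcript of Gm7592 matches Gm7609 at 95% identity or more, so these values cannot be assigned to 1 copy. Gm15056, with no close copy, had 68.5, 35 and 16.8 TPM against 2.23, 3.88 and 2.31. Gm43694 was at 0 in every sample outside WT LPS, and 24 other genes match most of its length.

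In the 19 genes with a higher response to which both conditions contributed, cGAS-/- cells were lower at rest and higher with LPS, as they also were in some LPS-level genes such as Mmp9 and Cd300e. Tmem176a and Tmem176b, neighbouring genes for membrane proteins of myeloid cells, fell with LPS in WT. Tmem176b went from 24.5, 21.8 and 23.4 TPM in WT UT to 6.65, 4.64 and 0.741 in WT LPS. In cGAS-/- cells it was at 4.2, 3.97 and 3.45 TPM at rest and at 11, 10.8 and 9.99 with LPS, a change of 1.25 with an adjusted p of 0.0751. The genotypes did not overlap in either condition and changed places. The differences of responses were 3.77 for Tmem176b (SE 0.607, adjusted p = 0.0141) and 3.90 for Tmem176a (SE 0.695, adjusted p = 0.0265). Without WT LPS replicate 3, the lowest sample in both, they were 3.13 and 3.15 and sorted with the resting-level genes. The genes overlap on opposite strands.

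Inhibitory and activating immune receptors were also in this class. Siglece, an inhibitory sialic acid receptor, had 200, 200 and 201 TPM in cGAS-/- LPS and 70, 107 and 35.5 in WT LPS, but 1.12, 1.81 and 1.77 against 5.6, 5.02 and 4.23 at rest. Pilra, an inhibitory receptor, had 86, 85.7 and 82.5 TPM against 22.9, 36.3 and 17.1 with LPS, and 1.22, 2.22 and 0.824 against 4.62, 3.77 and 3.52 at rest. Its activating partner Pilrb1 had 19.7, 21 and 21.6 TPM against 9.73, 9.12 and 6.17 with LPS. All 3 genes rose in both genotypes, with differences of responses of 2.85, 2.83 and 2.14. Pilrb1 shares 56.2% of its transcript with Pilra at 95% identity or more, so the pair is not fully separate.

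Spn and Herpud1 were genes of this class in which LPS effects of opposite direction both passed the test. Spn, the sialoglycoprotein CD43, fell in WT from 1.77, 1.87 and 2.13 TPM to 0.46, 0.593 and 0. In cGAS-/- cells it rose from 0.604, 0.607 and 0.826 TPM to 3.07, 3.26 and 2.69, and the difference of responses was 2.39 (SE 0.28, adjusted p = 0.0025). Herpud1, of the degradation machinery of the endoplasmic reticulum, fell in WT from 5.58, 4.81 and 6.46 TPM to 2.1, 3.43 and 2.58. It rose in cGAS-/- cells from 2.62, 2.28 and 3.5 TPM to 7.19, 5.48 and 7.81, a difference of 1.89 (SE 0.311, adjusted p = 0.0168). Among all 96 genes the LPS effects had opposite signs in 28, and both passed the test in 3, the third being Gm42764, which 4 other genes match over most of its length.

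Further genes of this class were Tpcn1, a channel of endosomes and lysosomes, and Cavin1, a coat protein of caveolae, which fell in both genotypes and differed by 1.46 and 1.18. The thioesterase gene Acot7 and Pik3r6, a regulatory subunit of PI3K gamma, rose in cGAS-/- cells, with WT changes of -0.14 and 0.09 that did not pass the test and differences of 1.98 and 1.56. Of the 2 genes of the class with a lower response, Tspan13, a tetraspanin, fell in both genotypes. It went from 17.3, 17.8 and 14.5 TPM to 0.741, 0.773 and 0.444 in cGAS-/- cells and from 11.9, 9.3 and 8.64 to 2.69, 2.64 and 1.67 in WT, a difference of -1.69 (adjusted p = 0.0251).

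**Figure D3:**
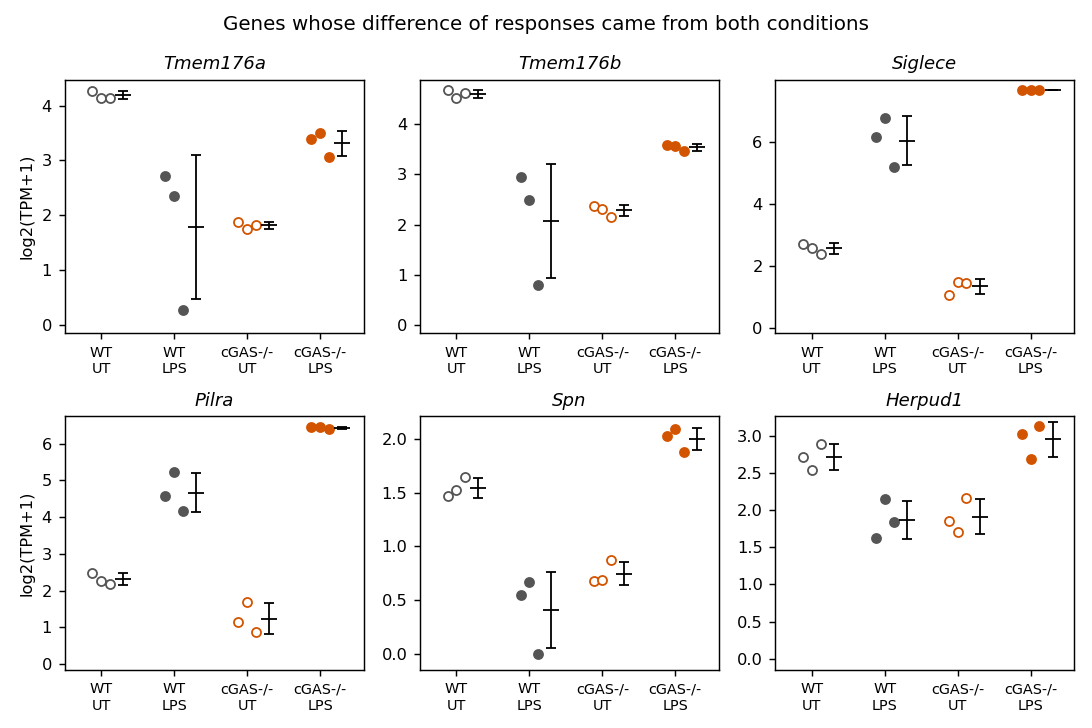
log2(TPM + 1) of 6 genes to which both conditions contributed in each sample (points, open for UT and filled for LPS, grey for WT and orange for cGAS-/-), with the mean and SD of the 3 samples beside them. In all 6 panels the resting cGAS-/- samples lie below the resting WT samples and the cGAS-/- LPS samples lie above the WT LPS samples.

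Genes of mitosis and DNA replication made up much of the resting-level class. Top2a, the DNA topoisomerase of dividing cells, was at 9.15, 10.6 and 10.2 TPM in WT UT and at 1.85, 1.4 and 1.8 in cGAS-/- UT. With LPS it was at 0.278, 0.51 and 0.107 in WT and at 0.534, 0.551 and 0.599 in cGAS-/- cells. Top2a fell in both genotypes, from a higher resting level in WT, and the difference of responses was 2.31 (SE 0.244, adjusted p = 0.00148). Mki67, the proliferation antigen Ki-67, was at 12.6, 13.3 and 12.3 TPM in WT UT and at 1.88, 2.51 and 2.01 in cGAS-/- UT, and all LPS samples lay between 0.522 to 0.937. Its difference of responses was 2.14 (SE 0.246, adjusted p = 0.00239).

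Other genes of mitosis had the same layout. Ckap2l, a spindle protein, had 9.84, 10.6 and 9.59 TPM in WT UT against 1.35, 2.13 and 0.839 in cGAS-/- UT. Ube2c, the ubiquitin-conjugating enzyme of the anaphase-promoting complex, had 10.8, 11.8 and 16.4 against 1.95, 1.43 and 1.76. Their differences of responses were 2.54 and 2.38, and no LPS sample of either was above 0.664 TPM. The cyclins Ccna2 (1.83) and Ccnb2 (2.15), the kinases Plk1 (1.60) and Bub1 (1.22), the survivin gene Birc5 (2.05), the kinetochore genes Spc24 (1.33), Spc25 (1.44) and Nuf2 (1.41), and the nucleotide synthesis genes Rrm2 (2.03) and Tk1 (1.38) were called in the same direction. In 32 of the 38 resting-level genes with a higher response the mean was under 1 TPM in both LPS groups. The log2(TPM + 1) scale has little room below that level, and whether the genotypes lost unequal proportions cannot be told from these values. In all 38 the UT groups did not overlap, against 32.9% of all genes tested, but the class was sorted by the difference at rest. Of the 38, 35 fell in WT and 15 fell in cGAS-/- cells.

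Over the whole list of mitosis genes, 45 of 68 were tested. Of these, 20 had a higher response in cGAS-/- cells and none a lower one, with a median difference of 1.19 against 0.32 over all genes, and 1.16 without WT LPS replicate 3. In 43 of the 45 every cGAS-/- UT sample was below every WT UT sample, and 34 were called lower at rest. Over all genes the UT groups did not overlap, in either direction, in 32.9%, and 1.82% were called at rest. However, 21 of the 45 were under 1 TPM in every sample outside WT UT and so passed the filter through the group where they were high, which leaves these counts and medians a description and no support. With LPS 1 of the 45, Cks2, was called for the genotype difference, against 2.6% of all genes. The LPS groups did not overlap in 6 of the 45, with cGAS-/- higher in 4 and lower in 2, against 18.7% of all genes. Of 32 DNA replication genes tested, 3 had a higher response, against 0.771% over all genes. Their median was 0.93, or 0.75 without WT LPS replicate 3. Of the 32, 10 were called lower at rest, against 1.82% over all genes, and 6 passed the filter through WT UT alone. In bulk samples fewer dividing cells and less RNA per dividing cell cannot be told apart. At rest the summed markers of some other cells were also lower in cGAS-/- than in WT samples, with 85.8 to 157 against 173 to 244 TPM for neutrophils, 3.03 to 5.02 against 10.7 to 13.8 for stromal cells, 4.46 to 6.34 against 7.39 to 7.75 for dendritic cells, 0.758 to 0.909 against 0.942 to 1.43 for T and NK cells and 20 to 28.6 against 109 to 134 for B cells. Those of erythroid cells (5.08 to 17.9 against 4.96 to 9.26) and of mast cells and basophils (0.683 to 1.41 against 0.47 to 0.855) overlapped. Macrophage markers were higher in cGAS-/- samples, with 25200 to 27200 against 21600 to 22500 TPM at rest and 36100 to 36500 against 19800 to 27800 with LPS. Their part in the resting-level results was not tested.

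Not all resting-level genes were near 0 with LPS. Clec4a1, a C-type lectin of myeloid cells, was at 280, 273 and 293 TPM in WT UT and at 69.7, 71.1 and 64.4 in cGAS-/- UT, and rose to 587, 957 and 551 in WT and to 642, 660 and 662 in cGAS-/- cells. The LPS groups overlapped, and the difference of responses was 1.98 (SE 0.329, adjusted p = 0.018). Cmklr1, the chemerin receptor, had 6.71, 7.99 and 6.99 TPM in WT UT and 1.42, 1.13 and 1.09 in cGAS-/- UT, and 8.63 to 15.7 over all LPS samples, a difference of 1.80. Cep85, a centrosome gene, fell in WT from 56.8, 58.9 and 63.2 TPM to 14, 22.9 and 11.5 and was at 13.9 to 16.9 TPM in all cGAS-/- samples, a difference of 2.11. Chil3, the chitinase-like protein Ym1, a marker of alternative activation, had 4.2, 6.92 and 7.33 TPM in WT UT and at most 1.26 in every other sample, a difference of 1.999.

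Igkv12-44, an immunoglobulin light chain segment, had 3.61, 4.74 and 5.24 TPM in WT UT, 0.45 in 1 cGAS-/- UT sample and 0 in all others. Beside it, the summed level of the 8 listed B cell markers was 109 to 134 TPM in WT UT, 20 to 28.6 in cGAS-/- UT, 30.7 to 45.3 in WT LPS and 3.13 to 8.94 in cGAS-/- LPS. None of the 8 was at 0 in all samples, and the part of B cell RNA in this result was not tested.

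Of the resting-level genes with a lower response, Id3 and Id1 encode inhibitors of basic helix-loop-helix factors and are known targets of BMP signals. Id3 was at 44.8, 47.1 and 46.4 TPM in cGAS-/- UT and at 1.29, 0.885 and 1.74 in WT UT. With LPS it was at 2.64, 2.21 and 2.03 in cGAS-/- cells and at 0.598, 0.93 and 2.32 in WT. Id3 fell in cGAS-/- cells by 3.84 on the log2 scale (adjusted p = 3.77e-06), and its WT change was -0.07 (adjusted p = 0.849). The difference of responses was -3.77 (SE 0.377, adjusted p = 0.000978). Id1 was at 14.2, 12 and 11.7 TPM in cGAS-/- UT and at most 1.58 in every other sample, with a difference of -3.36 (adjusted p = 0.00483).

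Other genes of TGF-beta and BMP signalling were called in the same direction. Tgfb3, a TGF-beta ligand, had 8.05, 7.81 and 6.43 TPM in cGAS-/- UT against 0.763, 1.46 and 1.36 in WT UT, and no LPS sample was above 0.405. Smad6, an inhibitor of BMP signalling, had 2.3, 2.71 and 2.55 TPM in cGAS-/- UT against 0.0585, 0.149 and 0.0255 in WT UT. Smad6 rose in WT with LPS to 1.74, 1.06 and 2.29, whereas cGAS-/- LPS samples had 1.67, 1.34 and 1.03. The differences were -2.09 for Tgfb3 and -1.89 for Smad6. Sox4, a transcription factor, fell in both genotypes, from 20.7, 19 and 18.3 TPM in cGAS-/- and 6.42, 5.69 and 5.39 in WT cells to at most 0.428, a difference of -1.53. In the list of Id and TGF-beta genes 4 of 17 tested had a lower response and none a higher one. The median was -0.39, or -0.68 without WT LPS replicate 3, and 5 were called higher at rest in cGAS-/- cells. Over all genes 0.203% had a lower response, the median was 0.32 and 1.82% were called at rest. Psenen-ps, at 15.7, 31.2 and 25.3 TPM in cGAS-/- UT and at most 0.743 elsewhere, differed by -4.33, but the whole transcript of this pseudogene matches Psenen.

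**Figure D4:**
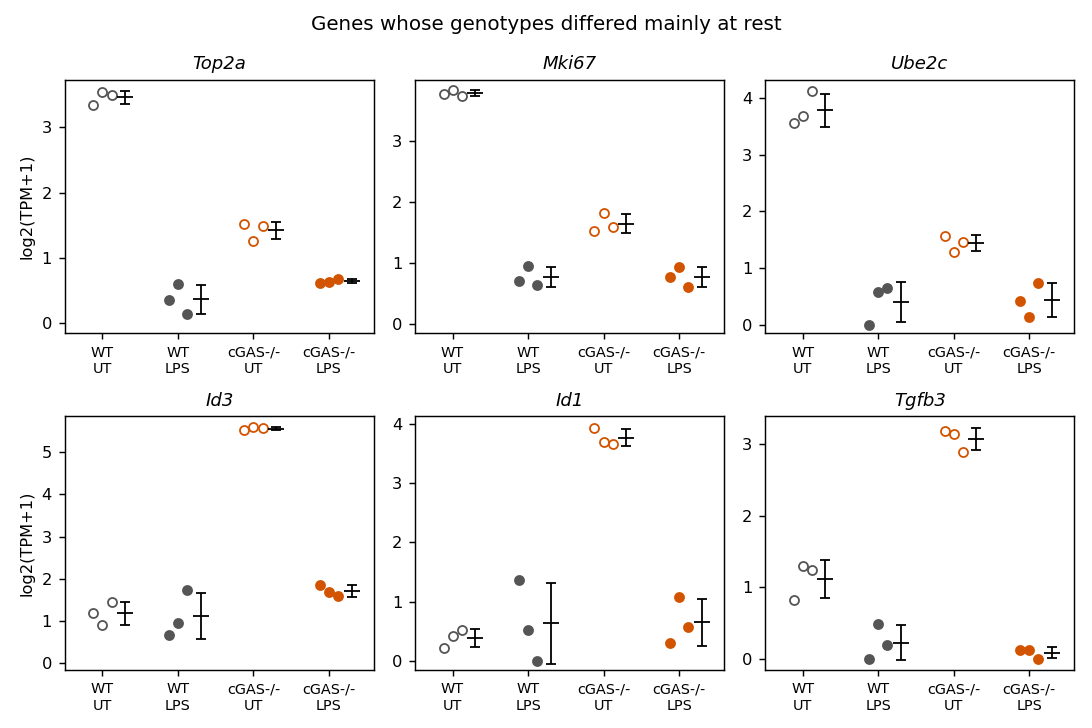
log2(TPM + 1) of 6 resting-level genes in each sample (points, open for UT and filled for LPS, grey for WT and orange for cGAS-/-), with the mean and SD of the 3 samples beside them. WT UT samples lie highest for Top2a, Mki67 and Ube2c, and cGAS-/- UT samples lie highest for Id3, Id1 and Tgfb3.

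The bases before the starts of Id1 and Ckap2l are shown as examples from both directions of this class. The Id1 stretch, chr2:152577915-152578164 on the plus strand, holds a CHR motif, TTTGAA, 57 bases before the start. The Ckap2l stretch, chr2:129139223-129139472 on the minus strand, holds NF-kB matches 14 and 13 bases before the start that overlap each other.
Id1: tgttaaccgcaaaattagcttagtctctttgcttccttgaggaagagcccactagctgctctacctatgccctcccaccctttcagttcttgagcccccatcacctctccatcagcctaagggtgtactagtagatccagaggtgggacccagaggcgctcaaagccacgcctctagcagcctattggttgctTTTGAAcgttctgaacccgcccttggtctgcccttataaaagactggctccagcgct
Ckap2l: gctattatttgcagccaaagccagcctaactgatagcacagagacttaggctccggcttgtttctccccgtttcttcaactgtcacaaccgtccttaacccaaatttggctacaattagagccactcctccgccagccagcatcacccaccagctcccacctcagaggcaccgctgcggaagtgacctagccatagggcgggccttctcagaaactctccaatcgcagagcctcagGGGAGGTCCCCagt

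Motifs were counted on both strands of the same 250 bases for the called protein-coding genes. The NF-kB, ISRE and E2F (TTCCCGC or TTGGCGC) motifs were searched as well, and matches of different motifs may overlap. An AP-1 motif was present in 4 of the 19 LPS-level promoters with a higher response (21.1%), those of Il6, Mmp9, Il12a and Gja1, and in 3.23% of all 7223 promoters of tested protein-coding genes. NF-kB matches were present in 2 of these 19 (10.5%) against 8.18% of all. Among the 32 resting-level promoters with a higher response, 6 held an NF-kB match (18.8%), 5 a CHR match (15.6% against 12.3% of all) and 1 an E2F match (3.12% against 9.46%). These are counts of letters in a short window and were not tested.

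Called genes in the lists of LPS-responsive genes are to be read against the 0.974% called over all genes tested. Among 17 cytokines tested, Il6, Il1a and Il12a had a higher response, and the list's median was 0.33, near the 0.32 of all genes. Without WT LPS replicate 3 the cytokine median was -0.14, against 0.09 for all genes. Among 19 chemokines Ccl8 was called, and the median was -0.11, or -0.29 without WT LPS replicate 3. Among 26 LPS effector genes Marco, Slc7a2 and Fscn1 had a higher response, with a median of 1.21 and 25 genes above 0. Over all genes 70.9% were above 0, and without WT LPS replicate 3 the median of this list was 0.85. Il12a and Fscn1 were under 1 TPM in every sample outside cGAS-/- LPS and so passed the filter through the group where they were high. Outside that group Il6 reached 1 TPM in 1 WT LPS sample alone (1.07), so it too passed through cGAS-/- LPS. None of 17 NF-kB subunits and inhibitors was called by limma. Of the 17, 7 had an unadjusted p under 0.05, against 1089 of all 9855 genes, and 4 were called with weights per sample, against 292. The median was 0.98, or 0.53 without WT LPS replicate 3.

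Interferon-stimulated genes responded in both genotypes. Of 56 tested, 52 rose in WT and 54 rose in cGAS-/- cells, against 479 and 548 of all 9855 genes. None was called by limma for the difference of responses, and 2 had an unadjusted p under 0.05, against 1089 of all 9855 genes. The median was 0.25, or -0.01 without WT LPS replicate 3. In 47 of the 56 every cGAS-/- UT sample was below every WT UT sample, and in 11 every cGAS-/- LPS sample was below every WT LPS sample. Over all genes the groups did not overlap, in either direction, in 32.9% at rest and 18.7% with LPS. The count with LPS was near that share, but in neither condition was a gene of this list apart in the other direction.

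Lists of metabolism and housekeeping genes were described in the same way. The medians were 0.37 for 61 cytosolic ribosomal protein genes, 0.67 for 55 nuclear respiratory chain genes and 0.90 for 18 glycolysis genes. None was called by limma, and 0, 2 and 6 had an unadjusted p under 0.05, against 1089 of all 9855 genes. Without WT LPS replicate 3 these medians were -0.02, -0.11 and 0.53, and 6 of the 18 glycolysis genes had a higher response, against 5.59% of all genes called in either direction. Of 13 cholesterol synthesis genes Mvd was called and 12 were above 0, with a median of 0.99, and 6 were called higher in cGAS-/- than in WT cells with LPS, against 0.974% of all genes called for the difference of responses and 2.6% for the genotype difference with LPS. Of 24 genes of the integrated stress and unfolded protein responses all were above 0, with a median of 1.05, and Herpud1 was called. Without WT LPS replicate 3 this median was 0.79. These counts above 0 are to be read against 70.9% of all genes tested.

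Several transcription factors and activation genes that the study discusses were not called for the difference of responses. The values here are mRNA levels of these genes themselves. For the factors the study predicted activity from expression profiles and compared LPS-treated cells. It measured iNOS (Nos2) and TGF-beta by PCR and CD206 (Mrc1) by flow cytometry. Those measures and comparisons differ from the one given here. The difference of responses was 1.19 for Nfkb1 (SE 0.488, adjusted p = 0.401), 0.22 for Stat2 (SE 0.401) and 0.03 for Jun (SE 0.606). It was -0.22 for Irf1, with a 95% interval of -1.05 to 0.62, so differences inside this interval are not excluded. Among genes of macrophage activation it was 0.62 for Nos2 (SE 0.633), -0.31 for Mrc1 (SE 0.412) and 1.59 for Tgfb1 (SE 0.672).

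Without WT LPS replicate 3, 355 genes had a higher and 196 a lower response in cGAS-/- cells. The 96 genes of the full comparison were 17.4% of these, and the other 455 were not called over 12 samples with the same model. In Il1b, interleukin-1 beta, cGAS-/- LPS samples had 915, 771 and 856 TPM and WT LPS samples 127, 156 and 45.4. Its difference of responses was 2.36 (SE 0.542, adjusted p = 0.0364), against 2.90 with an adjusted p of 0.0992 over 12 samples. Ptgs2, the prostaglandin synthase COX-2, had 57.6, 51.8 and 54.3 TPM in cGAS-/- LPS against 9.64, 16.8 and 1.49 in WT LPS. The neutrophil chemokine Cxcl1 had 133, 114 and 123 TPM against 21, 30.9 and 4.4. In these 3 genes every WT LPS sample was below the cGAS-/- LPS samples, and replicate 3 was the lowest. Of the 13 cholesterol synthesis genes tested 8 had a higher response, among them Idi1 (1.36) and Cyp51 (1.40), against 5.59% of all genes called in either direction.

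Lower responses of that comparison are given for genes chosen after their values were seen. Of the 56 interferon-stimulated genes on the list 1 had a lower and none a higher response, with a median of -0.01. Plac8 had 152, 76.7 and 13.4 TPM in WT LPS against 1.61, 1.09 and 1.38 in cGAS-/- LPS, a difference of -5.30 (SE 0.331, adjusted p = 3.69e-05). Cxcl11, a ligand of CXCR3 induced by interferon, had 25.1, 27.1 and 6.36 TPM against 3.82, 3.07 and 2.64, a difference of -2.71. Cxcl10, of the same group, had 127, 131 and 93.8 TPM against 45.7, 42.1 and 39.7, a difference of -0.998. The interferon-induced GTPase gene Tgtp1 differed by -2.87 and the monocyte chemokine Ccl12 by -2.93. Id2, of the Id family, was at 118, 121 and 114 TPM in cGAS-/- UT and 28.4, 30.8 and 27.2 in WT UT, and with LPS at 21.3, 27.1 and 25.7 in cGAS-/- cells and 48.3, 57.1 and 11.6 in WT. Its difference of -3.06 (adjusted p = 2.11e-05) was -2.36 with an adjusted p of 0.171 over 12 samples. Of 19 chemokines 5 had a higher and 7 a lower response, and of 26 LPS effector genes 11 had a higher and 1 a lower one, against 5.59% of all genes called in either direction.

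**Figure D5:**
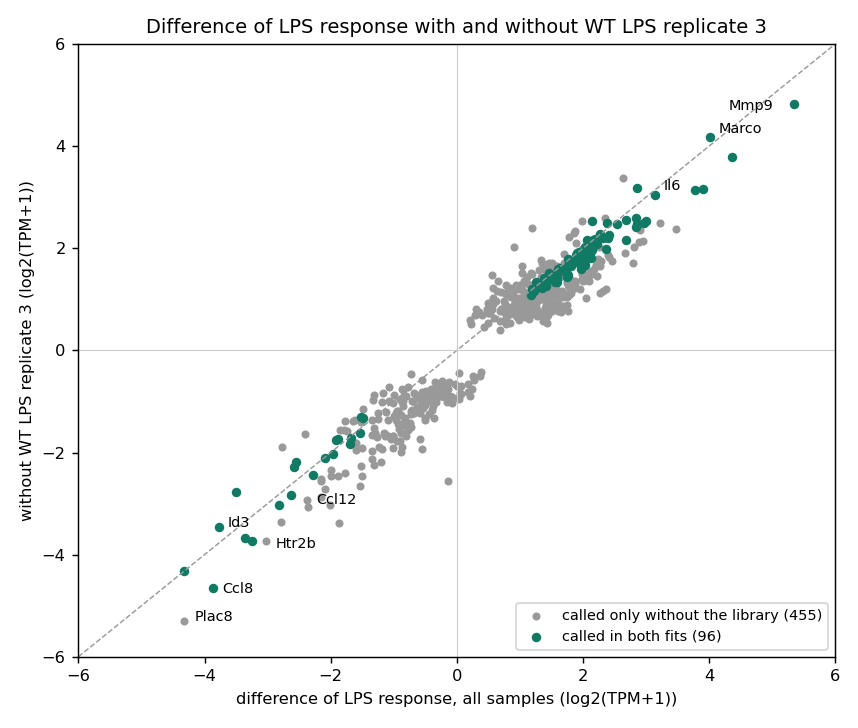
The difference of the LPS response (cGAS-/- minus WT, log2(TPM + 1)) over all samples on the x axis and without WT LPS replicate 3 on the y axis, for the 551 genes called without that sample. Green points are the 96 genes called in both, grey points the other 455, and the dashed line marks equal values.

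Near-identical copies limit some values. Of 95 called genes with an annotated transcript, 18 share over 50% of it with another gene at 95% identity or more. Besides those above they include Ccnb1-ps and Gm12856, which match each other or Ccnb1, Gm43690, which lies within Brca2, Phospho1, which overlaps Zfp652, and Cks2. Gm20594, at 2850, 2620 and 2570 TPM in cGAS-/- LPS and 749, 803 and 1540 in WT LPS, has no entry in the annotation used, and its difference was 2.86 (adjusted p = 0.00355).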

How the data were processed

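RNA-seq of 12 mouse macrophage libraries was analysed. Per the labels, the authors used fastp, STAR and kallisto on GRCm39, with no versions given. The deposited values were treated as TPM averaged over the transcripts of a symbol, a unit inferred from the values, so read depth is unknown. The table lists 90.1% of the protein-coding genes of chromosomes 1 to 12 and 69.1% of chromosome 13, and later chromosomes were not analysed here. Groups came from the labels. log2(TPM + 1) was fitted with limma 3.58.1 (R 4.3.3, variance trend, all 12 samples, no replicate block) after a filter of 1 TPM in 3 columns, with Benjamini-Hochberg adjustment over 9855 genes. The code was tried on simulated data with independent noise in each gene. This does not imitate differences of whole libraries, such as those of WT LPS replicate 3, and is no support for the calls. TMM factors were computed from their formula as scaling alone, with no count model. Copies were searched with BLAST 2.17.0 at 95% identity.

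The members and gene lists were chosen with earlier results of these data known. Genes were named by rule: up to 5 protein-coding genes of each class and direction, those the study names, up to 4 called genes of each list (or the smallest p), up to 4 non-coding genes, and Cgas. Other genes were named after their values were seen. Alternatives covered pseudocount, filter, scaling, variance model, block and left-out samples. A fold on the log2(TPM + 1) scale understates changes of low genes. Some genes that the rule names are not reported here.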

Additional observations from a re-analysis of the deposited data

Results flagged for a closer look

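The LPS response differed between genotypes, by the test of the difference itself, in 96 genes, 76 higher and 20 lower in cGAS-/- cells. The differences that passed the threshold in each alternative in which the gene was tested, other than a minimum difference of 1, were those of Mmp9 (5.34), Cd300e (4.36), Marco (4.01), Il6 (3.14), Top2a (2.31), Gm26674 (-2.57) and Id3 (-3.77). LPS effects of opposite direction both passed the test within a genotype in Spn (2.39), Herpud1 (1.89) and Gm42764 (-1.92). These values are on the log2(TPM + 1) scale, each from 3 samples a group.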

How the results depend on the processing

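The main comparison gave 96 genes, 50 of them beyond 2. Of the 96, 7 passed under each alternative that tested them (25, and 24 for the non-coding Gm26674) apart from a minimum difference, 89 were lost under at least 1, and none changed direction. The number called was 27 with a pseudocount of 0.1 (26 beyond 2), 196 with 5 (24), 49 with a filter at 5 TPM, 141 with TMM factors, 173 with quantile normalization, 292 with weights per sample and 15 with a variance per condition (14). A minimum difference of 1 (limma treat) left 5 genes, 4 of the 7 (Il6, Marco, Mmp9 and Id3) and Psenen-ps. The replicate block gave 52, 37 beyond 2, and 51 of the 96 remained. Same-numbered samples did not visibly deviate together (18 pairs, r -0.035 to 0.0469). With 3 samples a group and the wide spread of WT LPS, this cannot exclude that the numbers pair the samples. Leaving out each sample gave 44 to 1574 genes, 30 to 229 beyond 2. Without WT LPS replicate 2 it was 1574, without replicate 3 551 and without replicate 1 108, and 44 to 48 without any other sample. With WT LPS replicate 2 alone, added after seeing the data, 1413 genes were called, 100 beyond 2, and Jun (-0.94) and Nos2 (-0.724) had lower responses with an adjusted p under 0.05, whereas without replicate 2 Nos2 had a higher one (1.29, adjusted p = 0.0172). There the lone WT LPS sample was assumed to vary like the other groups, which vary less, so these calls are weak evidence. The cause of these moves was not tested.

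Resting-level genes were 46.9% of those called, genes of both conditions 21.9% and LPS-level genes 30.2%. The resting share was 33.3% with a pseudocount of 0.1, 57.9% with no filter, 34.7% with a filter at 5, 33.3% with TMM factors, 30.6% with quantile normalization, 17.1% with weights per sample, 33.3% with a variance per condition and 17.3% with replicate 2 alone. The LPS-level share was 41.3% with a pseudocount of 5, 46.8% with TMM factors, 45.7% with quantile normalization, 55.8% with weights per sample, 46.7% with a variance per condition, 47.9% with replicate 2 alone and 41.7% when sorted by adjusted p. The share of both conditions was 33.3% and 10.2% with pseudocounts of 0.1 and 5. Over left-out samples the shares ranged from 8.39% to 56.8%, 28.3% to 77.6% and 9.09% to 21.7%, for resting level, LPS level and both conditions. Of 27 named genes that were not called, 10 changed sign under some alternative. Depth is unknown, and the spread of WT LPS limits which differences could be detected.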
